A study of Homo sapiens with 9 samples.

Results

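The integrated stress and serine synthesis genes were followed in SET2, a megakaryoblastic leukemia line with a *JAK2* mutation that derives from an acute leukemia that followed a myeloproliferative neoplasm. The 10 members are *ATF4*, *ATF3*, *DDIT3*, *TRIB3*, *CHAC1*, *DDIT4*, *SESN2*, *ASNS*, *PSAT1* and *PHGDH*, taken by gene symbol from a table of 60662 genes. Every member was present as 1 row and all 10 passed the filter on low counts in each comparison. Bulk RNA-seq was made of untreated WT cells in 3 libraries and of a pair of untreated *DYRK1A* KO clones named 11H1 and 14B5, also in 3 libraries each. A clone was raised from 1 sorted cell once Cas9 ribonucleoprotein had been introduced by nucleofection, and clones with out-of-frame indels were kept. The libraries of a clone therefore share a founder, and an unedited clone of SET2 was not analysed here, so the effect of cloning and that of the knockout cannot be told apart. Nothing states that the 3 libraries of a group came from separate cultures, so the p values measure the spread between these libraries, which may be technical.

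The integrated stress response begins when kinases that sense amino acid shortage, heme lack, double-stranded RNA or misfolded protein in the endoplasmic reticulum phosphorylate the translation factor eIF2. Most protein synthesis then slows, while *ATF4* mRNA is translated more, so the *ATF4* mRNA level is only part of ATF4 activity. ATF4 protein, often paired with a C/EBP family factor, raises transcription of genes for amino acid synthesis and uptake, for restraint of mTORC1, and for feedback and cell death. Serine synthesis branches from glycolysis through PHGDH, PSAT1 and PSPH in turn, and its genes are well-known ATF4 targets. RNA-seq counts show none of the protein or phosphorylation steps.

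Levels are given as CPM, counts scaled to a common total, with library sizes adjusted by the TMM method of edgeR. Each of the 9 libraries held between 32347779 and 60272245 expected counts, and a count of 0 in the smallest library allowed up to 0.0914 CPM, a limit that covers counting error only. The targeted gene *DYRK1A* was at 196 to 219 CPM in WT and 174 to 192 CPM in the 6 KO libraries, and its log2FC against WT in edgeR was −0.09 for 11H1 (adjusted p = 0.119) and −0.17 for 14B5 (adjusted p = 0.0235). Its counts do not show the reading frame. The paper reports that western blots showed the knockout or knockdown of DYRK1A in its HEL and SET2 cells. Of 14 megakaryocyte markers 11 reached a mean of 1 CPM, as did all 10 erythroid markers and 4 of 12 T, B and myeloid markers, with *LYZ* (139 CPM) the highest of the last list and none of the 12 at exactly 0. The summed megakaryocyte markers were at 2128 to 2142 CPM in WT, 1677 to 1743 CPM in 11H1 and 1683 to 1735 CPM in 14B5, and the summed T, B and myeloid markers at 223 to 227, 124 to 132 and 124 to 139 CPM. Erythroid markers summed to 13690 to 15634 CPM in WT, 12957 to 14067 CPM in 11H1 and 15067 to 16523 CPM in 14B5. Abundant genes such as *ITGA2B* (725 CPM) and *HBG2* (11980 CPM) weigh most in these sums. Per gene, the median log2FC of the megakaryocyte markers in edgeR was −0.84 in 11H1 and −1.22 in 14B5. It was −0.76 and −1.28 for the T, B and myeloid markers tested, and −0.06 and 0.07 for the erythroid markers. Mitochondrially encoded genes took 3.54% to 6.03% of counts in WT, 7.23% to 7.39% in 11H1 and 3.30% to 3.92% in 14B5. The megakaryocyte and T, B and myeloid sums moved with every comparison of a clone with WT, and the mitochondrial share with every comparison that holds 11H1. Apart from a fit with mitochondrial genes left out, their part in the results was not tested. In bulk RNA, fewer cells of a type and less RNA per cell cannot be told apart.

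Short stretches of promoter are shown for the 3 members that carry the composite C/EBP-ATF motif TGATGNAAN, the site that a pair of ATF4 and a C/EBP factor is known to bind, because *ASNS* and *CHAC1* are the members that rose most in both clones. The motif was searched on both strands in the 250 bases before each RefSeq start on GRCh38.p14, in 16 windows for the 10 members, since 5 members have more than 1 start. It was present for 3 of the 10 members, against 3.87% of all 27305 genes with a window. Per window it was present in 3 of 16, against 3.13% of all 35116. The members were chosen as ATF4 pathway genes, so these shares are a description and not a test. The third carrier, *ATF3*, was not raised in 11H1 (log2FC 0.00) or 14B5 (−0.21). *ATF4* was higher in 11H1 (0.24) and 14B5 (0.25) without a match. A link between the motif and the changes was not tested. Capitals mark the motif, each stretch runs 5′ to 3′ on the strand of the gene, and the *CHAC1* stretch holds the motif on the opposite strand.
ATF3: aaggtcaggaTGATGGAAGgctgtcatat
CHAC1: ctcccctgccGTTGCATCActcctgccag
ASNS: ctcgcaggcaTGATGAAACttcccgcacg
The *ATF3* stretch is at chr1:212565206-212565234 on the plus strand, 201 to 173 bases before the start, and lies in no annotated exon of the gene. The *CHAC1* stretch is at chr15:40953251-40953279 on the plus strand, 220 to 192 bases before the RefSeq start, and the *ASNS* stretch is at chr7:97872458-97872486 on the minus strand, 78 to 50 bases before one of its 2 starts. Both of these lie inside annotated exons of their genes, from GENCODE v29 transcripts with other starts. A match is a description of the letters, and its absence from the other 7 members holds for these windows only. For *SESN2* and *PSAT1* the bases just after the start of the only window were not found in a GENCODE v29 transcript of the gene. Their absence is therefore less sure.

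Against WT, 8 of the 10 members were past the threshold (adjusted p under 0.05 in edgeR) in 11H1, 5 higher and 3 lower, where 31.8% of the 16675 genes tested were higher and 32.7% lower. In 14B5, 6 members were past it, 4 higher and 2 lower, against 24.9% and 28.8% of 16537 genes. *ATF4*, *CHAC1* and *ASNS* were higher in both clones and *PHGDH* was lower in both. *DDIT4* was also lower in both, by very different amounts, and its call in 14B5 was lost under some alternatives. The median log2FC of the members was 0.12 in 11H1 and 0.22 in 14B5, beside −0.01 over all genes tested in either. With so many genes past the threshold, these counts and medians say little of the members as a set, and the members did not move one way. Both comparisons use the same 3 WT libraries.

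**Figure D1:**
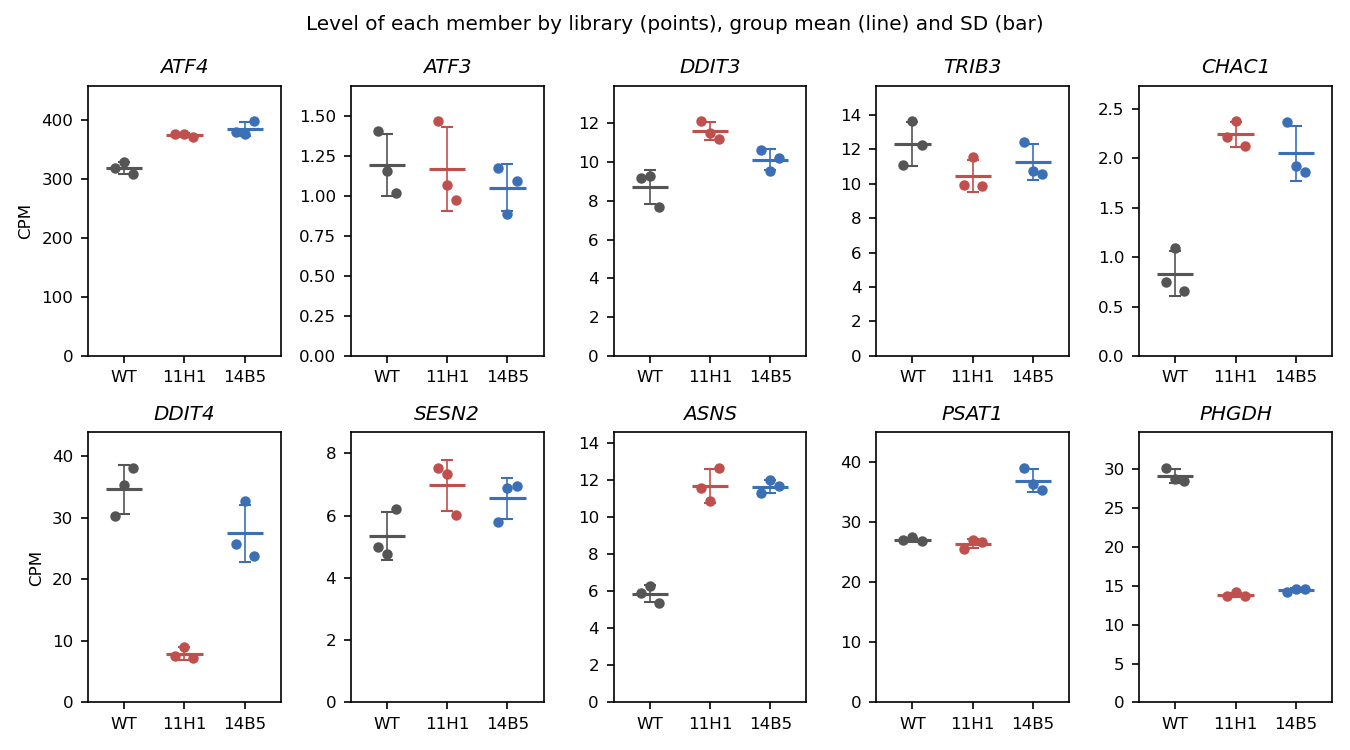
Level of each of the 10 members in CPM (vertical axis, from 0) for the 3 libraries of WT, 11H1 and 14B5 (points), with the group mean (line) and SD (bar). *ASNS* and *CHAC1* lie higher and *PHGDH* lower in all 6 KO libraries, *DDIT4* is lowest in 11H1 and *PSAT1* is highest in 14B5.

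*ATF4* (ENSG00000128272.14, chr22:39519695-39522685, plus strand, by GENCODE v29), the central factor of the response, was the most abundant member. In WT replicates 1 to 3 it stood at 319, 328 and 309 CPM, in 11H1 at 376, 377 and 370 CPM and in 14B5 at 379, 376 and 398 CPM. All 6 KO libraries were above all 3 WT libraries, and the clones overlapped. The rise was 1.18-fold in 11H1 (log2FC 0.24, standard error 0.04, adjusted p = 2.63e-04 in edgeR) and 1.19-fold in 14B5 (log2FC 0.25, standard error 0.05, adjusted p = 9.08e-04). RSEM gave *ATF4* fractional counts in all 9 libraries, since some reads also match other genes; its pseudogene *ATF4P4* had at most 43.7 counts in a library, against a mean of 14678 for *ATF4* in WT.

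*ATF3* (ENSG00000162772.17, chr1:212565334-212620777), a stress-induced factor that acts downstream of ATF4, was the least abundant member per length in WT. In WT it stood at 1.40, 1.153 and 1.02 CPM, in 11H1 at 1.47, 1.07 and 0.973 CPM and in 14B5 at 1.17, 0.887 and 1.10 CPM, between 32 and 80 counts a library. The 3 groups overlapped. Its log2FC was 0.00 in 11H1 (standard error 0.21, adjusted p = 0.986 in edgeR) and −0.21 in 14B5 (standard error 0.19, adjusted p = 0.383).

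*DDIT3* (ENSG00000175197.12, chr12:57516588-57521737, minus strand) encodes CHOP, the factor that links prolonged stress to cell death. Its level was 9.17, 9.27 and 7.71 CPM in WT, 12.1, 11.5 and 11.2 CPM in 11H1, and 10.6, 9.54 and 10.2 CPM in 14B5. The groups were in order without overlap, WT lowest and 11H1 highest. In edgeR *DDIT3* was 1.34-fold higher in 11H1 (log2FC 0.42, standard error 0.09, adjusted p = 8.60e-04), while in 14B5 the log2FC was 0.20 (standard error 0.09, adjusted p = 0.0919), past the threshold with no filter on low counts (0.0418) and in a fit of 3 groups (0.0407). Tested directly, 11H1 was above 14B5 by a log2FC of 0.21 (standard error 0.07, adjusted p = 0.0213 in edgeR). That call was lost without 11H1 replicate 1 (adjusted p = 0.101 in edgeR), without 14B5 replicate 2 (0.112), with no filter on low counts (0.0584) and in DESeq2 (0.118). *DDIT3* overlaps *MARS* and *MBD6* on the opposite strand, and whether the counting used strand is not given in the sources used here. It also overlaps *AC022506.1* and *MIR616* on the same strand, though its counts were whole numbers in every library.

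*TRIB3* (ENSG00000101255.11, chr20:362835-397559), a pseudokinase that ATF4 and CHOP induce and that restrains them in return, did not rise with them. In WT it stood at 11.1, 13.6 and 12.3 CPM, in 11H1 at 9.94, 11.5 and 9.89 CPM and in 14B5 at 12.4, 10.7 and 10.6 CPM. Each clone overlapped WT. The log2FC of −0.23 in 11H1 was past the threshold (standard error 0.09, adjusted p = 0.0387 in edgeR) but not without WT replicate 2 (0.176), 11H1 replicate 1 (0.145) or 11H1 replicate 3 (0.136), nor in DESeq2 (0.0724). In 14B5 it was −0.15 (standard error 0.10, adjusted p = 0.206).

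*CHAC1* (ENSG00000128965.13, chr15:40952962-40956519), an enzyme that breaks down glutathione and a sensitive target of the ATF4 and CHOP branch, rose more than any other member in both clones. Its level was 0.753, 1.09 and 0.656 CPM in WT, 2.22, 2.38 and 2.13 CPM in 11H1, and 2.37, 1.92 and 1.86 CPM in 14B5. Every KO library was above every WT library. The rise was 2.68-fold in 11H1 (log2FC 1.42, standard error 0.20, adjusted p = 2.51e-05 in edgeR) and 2.41-fold in 14B5 (log2FC 1.27, standard error 0.21, adjusted p = 3.63e-04). These are changes of a low transcript, at 27 to 52 counts a library in WT and 70 to 121 in the clones, and its coefficient of variation in WT was 27.4%, the highest of any member in WT, 11H1 or 14B5.

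*DDIT4* (ENSG00000168209.5, chr10:72273920-72276036) encodes REDD1, which restrains mTORC1 under hypoxia, glucocorticoid and energy stress as well as downstream of ATF4. In WT it stood at 30.3, 35.4 and 38.1 CPM, in 11H1 at 7.58, 9.05 and 7.15 CPM and in 14B5 at 25.8, 32.7 and 23.8 CPM. The 11H1 libraries were far below all others, and those of 14B5 overlapped WT. The fall was 4.35-fold in 11H1 (log2FC −2.12, standard error 0.10, adjusted p = 1.95e-09 in edgeR), the largest change of a member in either clone. In 14B5 the log2FC was −0.35 (standard error 0.12, adjusted p = 0.0409 in edgeR), a call lost without WT replicate 2 (0.109), WT replicate 3 (0.223), 14B5 replicate 1 (0.129) or 14B5 replicate 3 (0.103), and with no filter on low counts (0.236). Between the clones *DDIT4* was 3.46-fold lower in 11H1 (log2FC −1.79, standard error 0.14, adjusted p = 2.39e-05 in edgeR). The antisense gene *DDIT4-AS1* overlaps it, and reads of the 2 strands may not have been told apart. The mitochondrial share of counts, given above, was also highest in 11H1. With mitochondrial genes left out, the log2FC of *DDIT4* was −2.13 in 11H1 versus WT and −1.79 in 11H1 versus 14B5. Any part of that share beyond library size was not tested.

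*SESN2* (ENSG00000130766.5, chr1:28259527-28282491), a leucine sensor that also restrains mTORC1, moved the other way. Its level was 5.004, 4.78 and 6.22 CPM in WT, 7.54, 7.34 and 6.02 CPM in 11H1, and 5.80, 6.89 and 6.96 CPM in 14B5. Both clones overlapped WT through WT replicate 3. The log2FC was 0.40 in 11H1 (standard error 0.12, adjusted p = 0.00936 in edgeR), lost without WT replicate 2 (0.0511) or 11H1 replicate 1 (0.0646). In 14B5 it was 0.29 (standard error 0.12, adjusted p = 0.0631), and it passed the threshold under 4 of 14 alternatives, namely without WT replicate 3 (0.00731) or 14B5 replicate 1 (0.0329), with no filter on low counts (0.0263) and in a fit of 3 groups (0.0404).

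*ASNS* (ENSG00000070669.17, chr7:97852118-97872542, minus strand) makes asparagine from aspartate and glutamine, and its promoter is the standard example of amino acid control through ATF4. In WT it stood at 5.90, 6.31 and 5.40 CPM, in 11H1 at 11.6, 10.9 and 12.7 CPM and in 14B5 at 11.3, 12.0 and 11.7 CPM. No KO library overlapped WT, and the range of 14B5 lay inside that of 11H1. The rise was a log2FC of 0.9997 in 11H1 (standard error 0.09, adjusted p = 3.84e-07 in edgeR) and of 0.97, or 1.96-fold, in 14B5 (standard error 0.08, adjusted p = 2.68e-06). Between the clones the log2FC was 0.01 (standard error 0.07, adjusted p = 0.913), with no consistent sign across alternatives (−0.05 to 0.05). *ASNS* counts were fractional in all 9 libraries, and its annotated pseudogenes held at most 6 counts. The processed transcript *AC079781.5* overlaps *ASNS* on the same strand, and sharing of reads with it was not examined.

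*PHGDH* (ENSG00000092621.12, chr1:119648411-119744226), the first and committed enzyme of serine synthesis, fell by about as much as *ASNS* rose. Its level was 30.2, 28.8 and 28.5 CPM in WT, 13.6, 14.2 and 13.6 CPM in 11H1, and 14.2, 14.6 and 14.6 CPM in 14B5. All 6 KO libraries were below all WT libraries, and the clones overlapped. The fall was 2.10-fold in 11H1 (log2FC −1.07, standard error 0.06, adjusted p = 2.67e-09 in edgeR) and 2.04-fold in 14B5 (log2FC −1.03, standard error 0.06, adjusted p = 7.42e-08). Between the clones the log2FC was −0.06 (standard error 0.06, adjusted p = 0.416).

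*PSAT1* (ENSG00000135069.14, chr9:78297143-78330093), the aminotransferase of the second step, did not follow *PHGDH* in either clone. In WT it stood at 27.0, 27.5 and 26.8 CPM, in 11H1 at 25.6, 27.1 and 26.7 CPM and in 14B5 at 39.1, 36.4 and 35.3 CPM. WT and 11H1 overlapped, and 14B5 was above both. The log2FC was −0.03 in 11H1 (standard error 0.05, adjusted p = 0.628 in edgeR), whereas *PSAT1* rose 1.35-fold in 14B5 (log2FC 0.43, standard error 0.06, adjusted p = 7.78e-05). Tested directly, 11H1 was below 14B5 by a log2FC of −0.48 (standard error 0.06, adjusted p = 1.21e-06 in edgeR). The enzyme of the third step, *PSPH*, had a mean of 26.4 CPM in WT, 18.1 CPM in 11H1 and 22.5 CPM in 14B5, and was lower in both clones (log2FC −0.54, adjusted p = 2.59e-06, and −0.25, adjusted p = 0.00441, in edgeR).

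**Figure D2:**
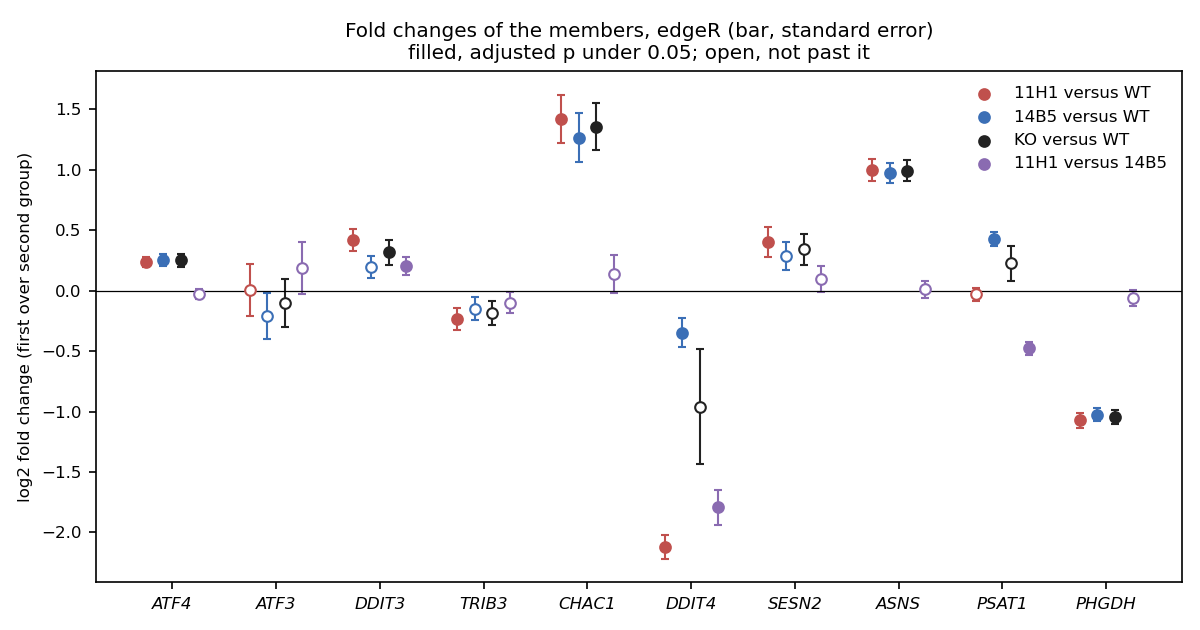
The log2 fold change of each member (vertical axis) in 11H1 versus WT, 14B5 versus WT, KO versus WT and 11H1 versus 14B5, with its standard error (bar). Filled points had an adjusted p under 0.05 in edgeR and open points did not. *CHAC1* and *ASNS* lie near 1 or above and *PHGDH* near −1 in both clones, *DDIT4* is at −2.12 in 11H1 and −0.35 in 14B5, and *PSAT1* is raised in 14B5 alone of the clones (0.43).

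Tested against each other, the clones differed in 3 members. *DDIT3* was higher in 11H1, and *DDIT4* and *PSAT1* were lower, where 31.6% of 16352 genes were higher in 11H1 and 32.1% lower. The other 7 members had a log2FC between −0.10 (*TRIB3*) and 0.19 (*ATF3*). The standard errors were 0.04 for *ATF4* and 0.07 for *ASNS*, but 0.16 for *CHAC1* and 0.22 for *ATF3*, so a difference between clones in the last 2 was measured much less closely.

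The libraries of both clones were also pooled as KO (6 libraries, 3 of each clone) versus WT (3 libraries). In that comparison 4 members were higher and 1 was lower, where 14.2% of 17080 genes were higher and 17.6% lower. Libraries of a clone are not separate knockouts, so its p values take libraries as the units. *ATF4* (log2FC 0.25, adjusted p = 0.00465), *CHAC1* (1.36, adjusted p = 5.96e-04), *ASNS* (0.99, adjusted p = 2.57e-05) and *PHGDH* (−1.04, adjusted p = 1.43e-06) were past the threshold in edgeR and under all 17 alternatives. *DDIT3* (log2FC 0.32, adjusted p = 0.0402) was past it under 7 of 17. *DDIT4* was not past it (log2FC −0.96, standard error 0.47, adjusted p = 0.152 in edgeR), with KO libraries from 7.15 to 32.7 CPM. *SESN2* (0.34, adjusted p = 0.0678), *PSAT1* (0.23, adjusted p = 0.265), *TRIB3* (−0.18, adjusted p = 0.195) and *ATF3* (−0.10, adjusted p = 0.730) did not pass either. A 2-sided exact permutation test over the libraries, made for each of the 10 members without correction, gave p = 0.0238 for *ATF4*, *DDIT3*, *CHAC1*, *ASNS* and *PHGDH*, the smallest it can give for 6 libraries against 3. The same exact test gave p = 0.0476 for *DDIT4*, 0.0714 for *SESN2* and 0.119 or more for the others. The permutation test treats the 9 libraries as exchangeable, whereas they fall in 3 groups, and 3 libraries against 3 could not go below an exact p of 0.1.

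Ratios between members of the same library do not depend on how library sizes are scaled, and they set the members apart further. The ratio of *ASNS* to *PHGDH* in CPM was 0.189 to 0.219 in WT, 0.768 to 0.931 in 11H1 and 0.799 to 0.821 in 14B5. The ratio of *PSAT1* to *PHGDH* was 0.895 to 0.957 in WT, 1.88 to 1.96 in 11H1 and 2.42 to 2.76 in 14B5. Both ratios were higher in every KO library than in any WT library, and for *PSAT1* to *PHGDH* the clones were also apart. The ratio of *ASNS* to *ATF4* was 0.0175 to 0.0192 in WT and 0.0289 to 0.0342 over the KO libraries, so *ASNS* mRNA rose by more than *ATF4* mRNA in each of them. For *CHAC1* to *ATF4* it was 0.00213 to 0.00332 in WT, 0.00575 to 0.00631 in 11H1 and 0.00469 to 0.00626 in 14B5.

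**Figure D3:**
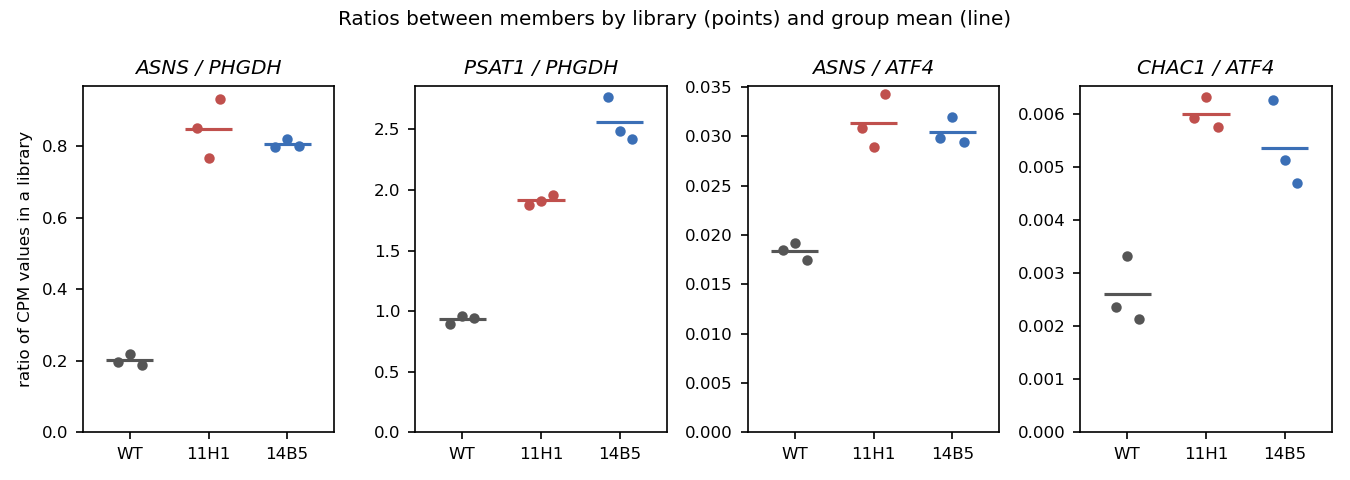
Ratio of the CPM values of 2 members in the same library (vertical axis, from 0) for WT, 11H1 and 14B5 (points, libraries; line, group mean). All 4 ratios are higher in every KO library than in every WT library, with *ASNS* / *PHGDH* between 0.189 and 0.219 in WT and between 0.768 and 0.931 in the clones. The ratios are not scaled for gene length and serve to compare libraries only.

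Per kilobase of merged GENCODE v29 exons, the order of the members in WT was *ATF4* at 127 CPM per kb, *DDIT4* at 16.8, *PSAT1* at 12.4, *DDIT3* at 6.67, *TRIB3* at 3.59, *PHGDH* at 3.16, *SESN2* at 1.55, *ASNS* at 1.32, *CHAC1* at 0.405 and *ATF3* at 0.295. The ranges over the 3 WT libraries overlapped for *TRIB3* and *PHGDH*, for *SESN2* and *ASNS* and for *CHAC1* and *ATF3*, and for no other neighbours in that order. In 11H1 *DDIT4* fell to 3.85 CPM per kb, below *PSAT1* (12.1) and *DDIT3* (8.87), while in 14B5 it was at 13.3, below *PSAT1* at 16.9. *ASNS* reached 2.63 CPM per kb in 11H1 and 2.62 in 14B5, beside *PHGDH* at 1.498 and 1.57. Merged exons of all isoforms overstate the length of long loci such as *PHGDH* (9217 bases in 24 blocks), so these levels are rough, and without scaling for length *ASNS* was below *PHGDH* in every library.

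The genes around the members were read as 8 lists, described by counts beside the shares of all genes given above. The lists can share a gene. *CEBPG* is counted both among the partners and paralogs and among the other ATF4 target genes. The eIF2 kinases, their phosphatase and the exchange factor eIF2B showed no shared direction. In 11H1, 6 of 18 were higher and 9 lower, with a median log2FC of −0.06, and in 14B5, 6 were higher and 2 lower, with a median of 0.11. *GCN1*, the activator of the amino acid sensing kinase GCN2, rose in 11H1 (log2FC 0.49, adjusted p = 1.02e-06 in edgeR) and was at −0.13 in 14B5 (adjusted p = 0.0599), with a direct difference between the clones (0.61, adjusted p = 2.21e-08). The eIF2B subunit gene *EIF2B5* rose in 11H1 (0.29, adjusted p = 7.97e-05 in edgeR) and was at 0.07 in 14B5 (adjusted p = 0.162). *IMPACT*, whose protein binds GCN1 in competition with GCN2, was lower in both clones (log2FC −0.63, adjusted p = 2.35e-07, and −0.23, adjusted p = 0.00552). *PPP1CC*, a phosphatase subunit gene, was lower in 11H1 (−0.43, adjusted p = 1.09e-06) and at −0.02 in 14B5 (adjusted p = 0.719). *PPP1R15A*, which encodes the stress-induced subunit GADD34, was higher in both (log2FC 0.20, adjusted p = 0.00215, and 0.34, adjusted p = 3.84e-04, in edgeR). *EIF2AK1*, the heme-regulated kinase, was at 0.01 in 11H1 (adjusted p = 0.801) and rose in 14B5 (0.33, adjusted p = 2.96e-04). *DNAJC3*, a kinase inhibitor, was lower in both (−0.28, adjusted p = 1.28e-04, and −0.14, adjusted p = 0.0395).

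Among partners and paralogs of the members 12 of 14 were tested. None was higher and 6 were lower in 11H1 (median log2FC −0.17), and 4 were higher and 6 lower in 14B5 (median −0.13). *CEBPA*, which encodes a myeloid C/EBP factor, was lower in 11H1 (log2FC −2.05 in edgeR, adjusted p = 1.72e-07) and also in 14B5 (−1.58, adjusted p = 1.78e-05). *JDP2*, whose protein pairs with AP-1 and ATF3, was lower in both clones (−0.99, adjusted p = 5.92e-05, and −0.66, adjusted p = 0.00259). *TRIB1*, a paralog of *TRIB3*, was lower in 14B5 (−0.71, adjusted p = 7.55e-05) and at −0.19 in 11H1 (adjusted p = 0.103). *CEBPG*, which encodes a frequent partner of ATF4, was higher in 14B5 (log2FC 0.36, adjusted p = 3.25e-04 in edgeR) and at 0.05 in 11H1 (adjusted p = 0.344). *CHAC2*, the paralog of *CHAC1*, was higher in 14B5 (0.23, adjusted p = 0.0172) and at −0.12 in 11H1 (adjusted p = 0.183).

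Other ATF4 target genes, none of them a member, were lower more often than higher. Of 28 tested of 31, 7 were higher and 19 lower in 11H1 (median log2FC −0.40), and 5 were higher and 14 lower in 14B5 (median −0.18). *TNFRSF10B*, which encodes the death receptor DR5, fell from a mean of 38.2 CPM in WT to 12.3 CPM in 11H1 and 12.6 CPM in 14B5 (log2FC −1.63, adjusted p = 3.81e-11, and −1.61, adjusted p = 1.86e-08, in edgeR). *RAB32*, a small GTPase gene, fell from 9.46 CPM to 1.80 CPM in 11H1 and 0.176 CPM in 14B5 (log2FC −2.40, adjusted p = 3.12e-10, and −5.81, adjusted p = 2.24e-09). *ADM2*, which encodes a secreted peptide, rose in both (log2FC 0.46, adjusted p = 0.0188, and 0.46, adjusted p = 0.0327), and *GTPBP2* rose in 11H1 (0.34, adjusted p = 4.77e-05) and was at −0.10 in 14B5 (adjusted p = 0.125).

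The serine, glycine and folate pathway beyond the members held 24 tested genes of 25, of which 8 were higher and 10 lower in 11H1 (median log2FC −0.09) and 9 were higher and 6 lower in 14B5 (median 0.11). *CTH*, the last enzyme of cysteine synthesis from homocysteine, was lower in both (log2FC −0.85, adjusted p = 1.60e-05, and −0.49, adjusted p = 0.00175). *AMT*, a part of the glycine cleavage system, was lower in 14B5 (−0.90, adjusted p = 1.79e-05) and higher in 11H1 (0.32, adjusted p = 0.00473), and the clones differed directly (1.20, adjusted p = 6.01e-10 in edgeR). *GLDC*, the decarboxylase of that system, was below the level set for naming and is given because its values stood out: it had a mean of 1.70 CPM in WT, 0.284 CPM in 11H1 and 0.119 CPM in 14B5.

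**Figure D4:**
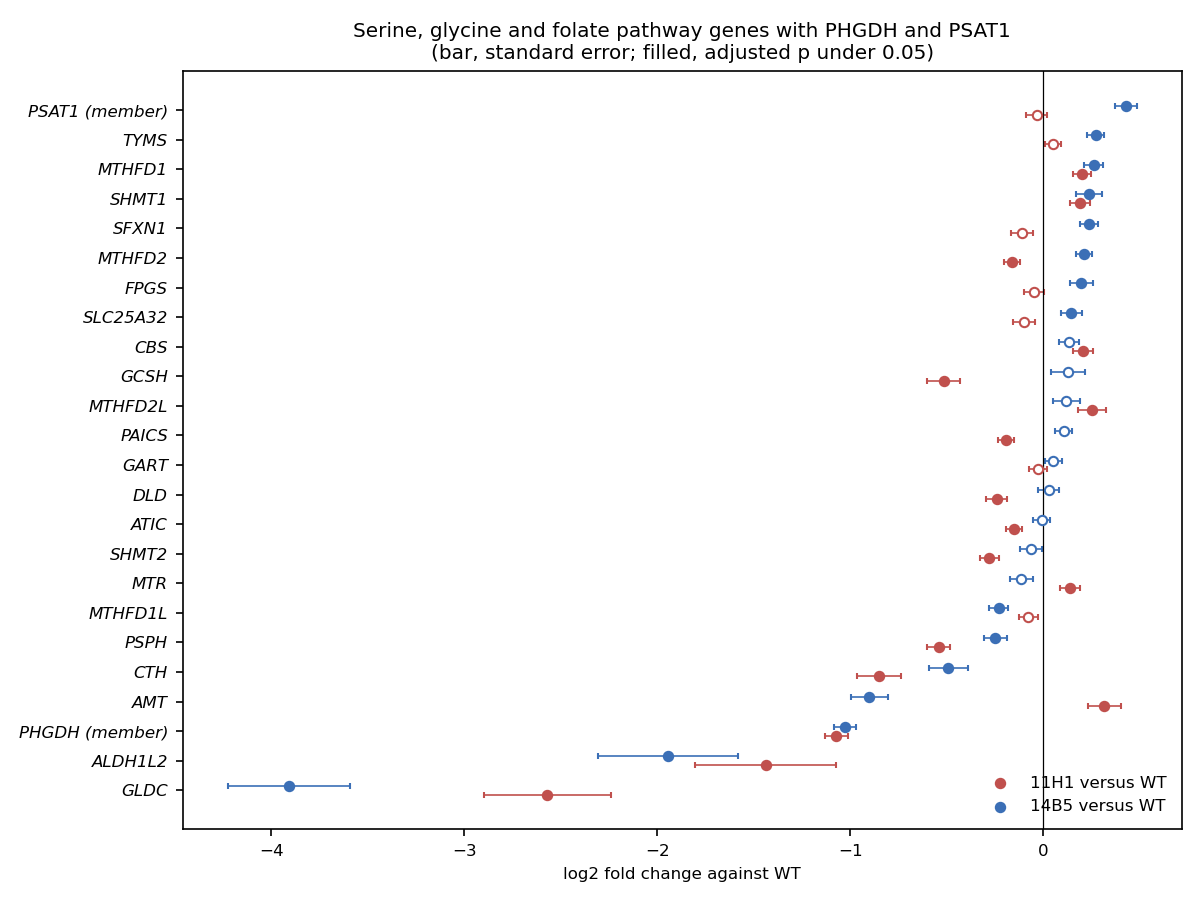
The log2 fold change against WT (horizontal axis) of serine, glycine and folate pathway genes and of the members *PHGDH* and *PSAT1*, in 11H1 and 14B5, with standard errors (bars) and in the order of 14B5. Filled points had an adjusted p under 0.05 in edgeR. *PHGDH* lies near −1 in both clones, and *PSAT1* at −0.03 in 11H1 and 0.43 in 14B5.

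Amino acid transporters had the highest share of higher genes of the 8 lists in both clones. Of 17 tested of 19, 12 were higher and 3 lower in 11H1 (median log2FC 0.27), and 10 were higher and 3 lower in 14B5 (median 0.23). *SLC6A9*, the glycine transporter, rose from 7.14 CPM in WT to 17.8 CPM in 11H1 (log2FC 1.32, adjusted p = 2.76e-09 in edgeR) and was at 9.50 CPM in 14B5 (log2FC 0.40, adjusted p = 0.00100). *SLC7A8*, which carries large neutral amino acids, rose from 18.7 CPM to 26.8 CPM in 11H1 (log2FC 0.53, adjusted p = 1.82e-06) and 43.2 CPM in 14B5 (1.20, adjusted p = 1.37e-08). *SLC1A4*, a carrier of serine and alanine, rose in both clones (log2FC 0.51, adjusted p = 2.60e-05, and 0.57, adjusted p = 1.02e-04, in edgeR). The lysosomal transporter gene *SLC36A1* and its paralog *SLC36A4* were lower in both clones, with log2FC values from −0.25 to −0.62 (adjusted p from 5.07e-04 to 0.0127 in edgeR).

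Cytosolic tRNA synthetases, of which several are ATF4 targets, split. In 11H1, 4 of 20 were higher and 10 lower (median log2FC −0.08), and in 14B5, 8 were higher and 6 lower (median 0.03). *CARS* (log2FC 0.41 in 11H1, 0.24 in 14B5) and *SARS* (0.21 and 0.46), the enzymes for cysteine and serine, rose in both clones (adjusted p from 1.46e-05 to 0.00419 in edgeR). *DARS* (−1.14 and −0.68) and *LARS* (−0.70 and −0.70), the enzymes for aspartate and leucine, fell in both (adjusted p from 3.80e-09 to 1.24e-05).

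The other arms of the response to misfolded protein did not rise as a group. Of 29 IRE1 and ATF6 arm genes, 7 were higher and 16 lower in 11H1 (median log2FC −0.17), and 3 were higher and 11 lower in 14B5 (median −0.13). *PDIA4*, an endoplasmic reticulum disulfide isomerase, was lower in both (log2FC −0.59, adjusted p = 1.32e-07, and −0.36, adjusted p = 5.04e-05, in edgeR), as were *SDF2L1* (−0.60, adjusted p = 8.13e-05, and −0.23, adjusted p = 0.0425) and *MANF* (−0.45, adjusted p = 9.70e-06, and −0.36, adjusted p = 0.00200). Of the degradation machinery, *DERL3* rose in 11H1 (0.99, adjusted p = 1.55e-06 in edgeR) and was at 0.23 in 14B5 (adjusted p = 0.0761), and *SYVN1* rose in 11H1 (0.72, adjusted p = 5.55e-08) and was at −0.08 in 14B5 (adjusted p = 0.238). *DERL2* (0.25, adjusted p = 0.00300, and 0.26, adjusted p = 0.00574) and *ATF6B* (0.17, adjusted p = 0.00267, and 0.24, adjusted p = 6.89e-04) rose in both. Of 16 mitochondrial stress genes, 1 was higher and 10 were lower in 11H1 (median −0.27), and 1 was higher and 5 were lower in 14B5 (median −0.08). *HSPA9*, the mitochondrial HSP70, was lower in both clones (−0.51, adjusted p = 2.23e-07, and −0.48, adjusted p = 6.67e-06, in edgeR). *CLPP*, a matrix protease, was lower in 11H1 (−0.56, adjusted p = 1.77e-05) and at −0.09 in 14B5 (adjusted p = 0.359). *SPG7*, of an inner membrane protease, was higher in 11H1 (0.56, adjusted p = 1.43e-06) and lower in 14B5 (−0.28, adjusted p = 0.00497), with a direct difference between the clones (0.82, adjusted p = 1.26e-09 in edgeR). *DELE1*, which relays mitochondrial stress to the heme-regulated kinase, was lower in both (−0.47, adjusted p = 3.16e-06, and −0.77, adjusted p = 2.91e-07), as was *ATF5*, a factor of the same family as ATF4 (−0.16, adjusted p = 0.0456, and −0.57, adjusted p = 3.30e-05). The chaperonin gene *HSPD1* was higher in 14B5 (0.21, adjusted p = 0.00362) and at 0.08 in 11H1 (adjusted p = 0.112).

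**Figure D5:**
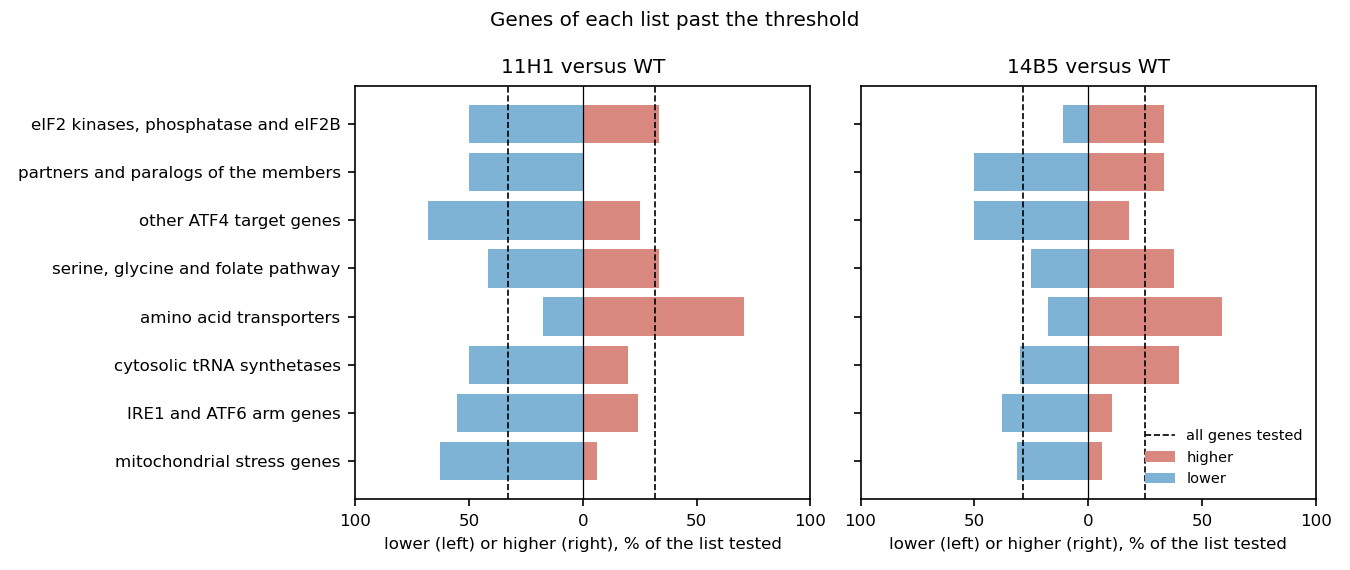
Share of each list's tested genes that were higher (right) or lower (left) than WT with an adjusted p under 0.05 in edgeR, in 11H1 (left panel) and 14B5 (right panel), with the share of all genes tested as dashed lines. Amino acid transporters are the list with the highest share of higher genes in both panels (12 and 10 of 17), and other ATF4 target genes have more lower than higher genes in both (19 and 14 of 28).

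In KO versus WT the same lists had fewer genes past the threshold, and so did all genes tested. There 14.2% of 17080 genes were higher and 17.6% lower, so the drop is not particular to the lists. Amino acid transporters had 8 higher and 2 lower of 17 (median log2FC 0.28), other ATF4 target genes 4 higher and 12 lower of 28 (−0.26), and the serine, glycine and folate pathway 5 higher and 4 lower of 24 (0.02), beside a median of 0.02 over all genes tested. Partners and paralogs had none higher and 4 lower of 12 (−0.27), tRNA synthetases 3 higher and 4 lower of 20 (−0.01), and the eIF2 list 3 higher and 2 lower of 18 (0.04). IRE1 and ATF6 arm genes had 2 higher and 9 lower of 29 (−0.13), and mitochondrial stress genes none higher and 3 lower of 16 (−0.18).

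The genes whose log2 CPM over the 9 libraries was most like that of 2 members were named among the 9780 whose mean reached 10 CPM. For *ASNS* they were *MXD4*, a MAX partner gene (Pearson r = 0.987), *HSPA1B*, an inducible HSP70 gene (r = 0.984), and *PAPPA*, a secreted metalloprotease gene (r = 0.983). *PAPPA* had a mean of 2.62 CPM in WT and 21.7 CPM in each clone, and *HSPA1B*, whose near-identical copy makes its counts uncertain, one of 85.6 CPM in WT, 155 CPM in 11H1 and 154 CPM in 14B5. For *PHGDH* they were *C1QTNF6*, a secreted C1q family gene (r = 0.998), *RIMKLB*, an N-acetylaspartylglutamate synthase gene (r = 0.998), and *SPI1*, which encodes the myeloid factor PU.1 (r = 0.996). *SPI1* was at a mean of 64.5 CPM in WT, 38.0 CPM in 11H1 and 39.0 CPM in 14B5, and *RIMKLB* at 30.8, 3.42 and 3.92 CPM. The 9 libraries form 3 groups, so a gene with similar levels in both clones and another level in WT will have a high r.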

How the data were processed

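Strand-specific settings, annotation release and RSEM version are not given in the sources used here. The submitters' processing notes name STAR 2.7.9a, Picard, RSEM and GRCh38. Stranded mRNA libraries are described in the paper, but the deposited description names a SMARTER kit. The deposited values are expected counts from RSEM, which shares out a read among the genes it matches, and the authors did not normalize them. The paper used 5 KO libraries without naming them, and all 6 were analysed here.

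Of 60754 entries, 92 spike-in rows at 0 were left out. Expected counts were rounded and fitted across all genes with edgeR 4.0.16 (R 4.3.3): TMM, filterByExpr on the groups compared, the quasi-likelihood F test in its robust form, and adjustment by Benjamini-Hochberg over all genes tested with a threshold of 0.05. Log2 CPM used a prior count of 2. Exact permutation tests used scipy 1.17.1. Alternatives were DESeq2 1.42.0 (size factors, Wald test), limma-voom 3.58.1 on unrounded values, library sizes without mitochondrial genes, other filters, a fit of 3 groups, the replicate number as a block, and each library left out.

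The members and the lists were chosen with earlier results of these data known. Named genes were the members, *DYRK1A*, for each list at most the 2 genes past the threshold furthest above and the 2 furthest below WT in each clone (mean of at least 1 CPM), and the 3 genes most correlated with *ASNS* and with *PHGDH* (mean of at least 10 CPM). Older symbols were kept as listed. Some genes that this rule covers are not reported here. Replicates of a group differed from each other by more than sampling noise (chi-square per gene 4.04 to 35.8), so no library was a copy. Promoter windows (250 bases before to 50 after the start) came from RefSeq on GRCh38.p14, and coordinates from GENCODE v29 on GRCh38, matched by identifier without version.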

Additional observations from a re-analysis of the deposited data

Results flagged for a closer look

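Over the 6 KO libraries *ATF4* in 14B5 replicate 3 (398 CPM) stood apart from the others (370 to 379 CPM), with a gap of 0.700 of the whole range. The limit used for such gaps is one that chance passes in about 1 in 20 groups, and the 6 libraries come from 2 clones. All 10 members were checked for such a gap, and only *ATF4* passed the limit. The effect against WT differed between the clones, by the direct test of 11H1 versus 14B5 in edgeR, for *DDIT3* (log2FC 0.21, adjusted p = 0.0213), *DDIT4* (−1.79, adjusted p = 2.39e-05) and *PSAT1* (−0.48, adjusted p = 1.21e-06). For *DDIT4* both clones were lower than WT and by different amounts. Its call in 14B5 (adjusted p = 0.0409 in edgeR) held under only 9 of 14 alternatives, and the 14B5 libraries overlapped WT. For *PSAT1* 14B5 was above WT and 11H1 was not past the threshold, and for *DDIT3* 11H1 was further above WT than 14B5.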

How the results depend on the processing

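The number of members past the threshold stayed within 1.5 times its value under all alternatives but 1: a fit of 3 groups gave 8 members in KO versus WT in place of 5, adding *DDIT4*, *SESN2* and *PSAT1*; in that fit the spread between clones is not part of the error. Of 590 values of single members under alternatives, 539 kept their direction and side of the threshold, 25 lost the call, 12 gained one and 14 changed sign, none of the last past the threshold. The log2FC of *ATF3* in 11H1 versus WT changed sign to −0.012 in DESeq2, −0.018 with no filter, −8.84e-04 with at least 10 counts in every library, −0.0097 in the fit of 3 groups and −0.023 with the replicate block, and ran from −0.23 to 0.13 without 1 library. Without 1 library that of *ATF3* ran from −0.034 to 0.29 in 11H1 versus 14B5 and from −0.20 to 0.026 in KO versus WT, and that of *ASNS* from −0.054 to 0.055 in 11H1 versus 14B5, where it was −0.0043 in DESeq2 and −0.014 with no filter. Same-numbered libraries of different groups were correlated on log2 CPM after each group's mean was taken off. These correlations ran from −0.257 to 0.150, and those of differently numbered libraries from −0.257 to 0.267. With 3 libraries a group, they cannot decide whether a shared number marks a shared batch. With the replicate block, 8, 6, 3 and 4 members were past the threshold in 11H1 versus WT, 14B5 versus WT, 11H1 versus 14B5 and KO versus WT, and *DDIT3* was lost in the last (adjusted p = 0.0816 in edgeR). Of 96 counts for the lists, 11 moved by over 1.5 times. In KO versus WT the fit of 3 groups gave 11 eIF2 genes in place of 5, 7 partners and paralogs in place of 4, 15 serine, glycine and folate genes in place of 9, 11 tRNA synthetases in place of 7, 21 IRE1 and ATF6 arm genes in place of 11 and 12 mitochondrial stress genes in place of 3. The replicate block gave 2 eIF2 genes, 4 tRNA synthetases and 7 IRE1 and ATF6 arm genes there, and 5 eIF2 genes in place of 8 and 7 tRNA synthetases in place of 14 in 14B5 versus WT. The motif was found for 3 members under every setting. The alternative settings only dropped its free last base, also searched the bases just after the start, or did both. They could keep or add members but not lose one, so they do not test the 3 matches. No further member was added by them. At 27 to 121 counts a library, *CHAC1* and *ATF3* were the members that depth limited most. The cause of these shifts was not tested.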
